A study of Glycine max with 44 samples.

Results

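AS2, UR9 and AAH are soybean genes of the compounds in which the plant moves and stores nitrogen, and they were followed here in root tips of 2 genotypes given aluminium or none. AS2 encodes an asparagine synthetase, UR9 a uricase and AAH an allantoate amidohydrolase. The 3 genes, of 6029 that the array's annotation names on a probe set of their own, were picked from measured values of these same arrays, and their members are every soybean probe set annotated with one of those symbols alone. That gave 7 probe sets out of 61170 on the array, of which 37593 were taken as soybean: 2 for AS2, 1 for UR9 and 4 for AAH. A further 2 probe sets are annotated to AAH together with its paralog AAH2 and are not counted among the 7.

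Asparagine synthetase moves the amide nitrogen of glutamine onto aspartate, and the asparagine formed carries nitrogen through xylem and phloem. Ureides are the other transport form: purines are broken down to urate, uricase oxidises urate in the peroxisome, and allantoin and allantoate follow. Allantoate amidohydrolase breaks down allantoate and releases ammonium, so it acts where ureide nitrogen is used. Soybean is known for exporting ureides from nodules that fix nitrogen, where the uricase nodulin-35 is abundant, and asparagine is prominent in plants fed mineral nitrogen.

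The study measured RNA of tap root tips, 1 cm long, on 44 Affymetrix soybean arrays. The groups were PI416937 (labelled tolerant to aluminium) with 10 µM Al, PI416937 untreated (0 µM Al), Young (labelled sensitive) with 10 µM Al, and Young untreated. Tips were taken at 2, 12, 48 and 72 h, on 2 arrays a group at 2 h and 3 arrays a group later, and this number of arrays limits the precision. All plants grew in hydroponics in a growth chamber, and the labels do not say whether replicates are separate cultures, whether any plant was nodulated, or at what clock time roots were cut. The sample titles of PI416937 end in the letter b and those of Young do not. Whatever that letter marks cannot be told apart from genotype.

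Levels are given as log2(intensity + 16), where a step of 1 is a factor of 2 in the sum of intensity and 16, so changes of dim probe sets are understated. Differences are between group means on that scale, with the standard error (SE) of the limma contrast, whose spread is pooled over the 16 groups. A probe set counted as called when limma's p, adjusted by the Benjamini-Hochberg method over the 35289 tested soybean probe sets, was under 0.05. Because AS2, UR9 and AAH were chosen on these values, their differences and calls are descriptions, and no p-value is given for them. All 7 probe sets passed the filter on low values and lay above the background of 4.41, the 95th percentile of the means of 23350 probe sets for other organisms, in all 16 groups.

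The arrays deviated from their group means by a root mean square of 0.11 to 0.56 over all tested probe sets. The 4 that stood farthest off were replicates 1 and 3 of Young with Al at 12 h, replicate 1 of untreated PI416937 at 72 h, and replicate 3 of PI416937 with Al at 48 h. Root tip markers for histone H4 and tubulins (5 probe sets of 4 genes) were above background in every group, and their summed intensity spanned 49156 to 59463 in untreated PI416937 and 46612 to 62075 in untreated Young. The 10 seed storage probe sets summed to 49.9 to 57.2 in untreated arrays, near background.

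AS2 lies on chromosome 14, from 46874278 to 46881049 in the Glycine_max_v4.0 assembly. Its level was higher at 2 and 12 h than at 48 and 72 h in both genotypes. In PI416937 it was lower with Al than without Al at 48 h. Of its 2 probe sets, the one with the suffix _a_at, which has the higher mean, represents it below. Over the 44 arrays it ran from 6.79 to 13.23 with a median of 10.46, and its group means spanned 5.46.

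In PI416937 with Al, AS2 read 11.84 and 13.01 at 2 h, 11.94, 11.96 and 11.66 at 12 h, 7.16, 8.56 and 7.42 at 48 h, and 6.79, 8.38 and 8.23 at 72 h. In untreated PI416937 it read 11.38 and 10.96 at 2 h, 12.39, 11.98 and 11.36 at 12 h, 9.68, 11.12 and 9.94 at 48 h, and 7.08, 8.12 and 7.51 at 72 h. At 48 h all 3 arrays with Al lay below all 3 untreated arrays, whereas at 12 and 72 h the groups overlapped. At 2 h both arrays with Al lay above both untreated arrays.

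In Young with Al, AS2 read 12.82 and 13.23 at 2 h, 11.83, 11.84 and 11.02 at 12 h, 9.18, 8.56 and 8.18 at 48 h, and 8.28, 9.41 and 9.55 at 72 h. In untreated Young it read 12.42 and 12.76 at 2 h, 12.31, 12.56 and 11.71 at 12 h, 10.26, 10.66 and 8.20 at 48 h, and 8.71, 8.73 and 8.79 at 72 h. The untreated arrays of Young at 48 h were split, since replicate 3 lay within the range of the arrays with Al and the other 2 lay above it.

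The difference of AS2 with Al in PI416937 was 1.25 ± 0.63 (SE) at 2 h, -0.06 ± 0.51 at 12 h, -2.54 ± 0.51 at 48 h and 0.23 ± 0.51 at 72 h. In Young it was 0.44 ± 0.63 at 2 h, -0.63 ± 0.51 at 12 h, -1.07 ± 0.51 at 48 h and 0.33 ± 0.51 at 72 h. At 12 and 48 h the replicate numbers of Young were taken to pair the arrays with Al and without Al. That pairing was read from correlated deviations in these same data. The pairs differed by -0.47, -0.73 and -0.69 at 12 h and by -1.09, -2.10 and -0.01 at 48 h, and with the pairs as a block the SE was 0.33 and neither difference was called. The drop at 48 h in PI416937 was the single difference with Al that was called among the 7 probe sets. The difference between the genotypes in that response, PI416937 minus Young, was -1.47 ± 0.72 at 48 h and was not called.

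At 48 h the values of PI416937 with Al, 7.71 ± 0.74 (SD, n = 3), were close to those reached without Al only at 72 h, 7.57 ± 0.52 (SD, n = 3). From 48 to 72 h AS2 differed by 0.09 ± 0.51 (SE) in PI416937 with Al and by -2.67 ± 0.51 in untreated PI416937. Leaving out replicate 3 of PI416937 with Al at 48 h, an array far from its group, gave a difference with Al of -2.39 ± 0.58 in place of -2.54. In bulk tips, fewer cells of a type and less RNA per cell cannot be told apart.

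The second AS2 probe set, with the suffix _x_at, ran close to the first over the groups (Pearson r = 0.951 over 16 group means, which share their arrays). The early course differed. From 2 to 12 h the _a_at probe set went from 11.17 to 11.91 in untreated PI416937 and from 12.59 to 12.19 in untreated Young. Over that interval the _x_at probe set fell in each genotype and treatment, from 10.90 to 9.58 and from 12.70 to 10.74 in those groups. The x in its name marks probes that may also detect other transcripts, and whether it does so here was not tested. It averaged 6.35 in PI416937 with Al at 48 h and 8.29 without, a difference of -1.94 ± 0.65 that was not called, again with no overlap between the arrays. At 2 h in PI416937 it averaged 12.60 with Al and 10.90 without.

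Without Al, the genotype mean of AS2 was 11.88 at 2 h, 12.05 at 12 h, 9.98 at 48 h and 8.16 at 72 h. The step for 48 h minus 2 h was -1.90 ± 0.40, that for 48 h minus 12 h was -2.08 ± 0.36, and that for 72 h minus 48 h was -1.82 ± 0.36. The x probe set gave -4.18 ± 0.52, -2.54 ± 0.46 and -1.75 ± 0.46 for the same 3 steps, so its early drop was the deeper of the 2. In single genotypes, 48 h minus 2 h was -0.92 ± 0.57 in PI416937 and -2.89 ± 0.57 in Young, while 72 h minus 48 h was -2.67 ± 0.51 in PI416937 and -0.96 ± 0.51 in Young. Whether these steps differed between the genotypes was not tested. Both steps of Young use replicate 3 of untreated Young at 48 h, which read 8.20. Without that array PI416937 minus Young at 48 h was -0.21 in place of 0.54.

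Ordered by mean, the 8 groups at 2 and 12 h filled the upper places for AS2 and the 8 groups at 48 and 72 h the lower ones. Young with Al at 2 h was highest, at 13.03 ± 0.29 (SD, n = 2), and untreated PI416937 at 72 h lowest, at 7.57 ± 0.52 (SD, n = 3). Of the 15 pairs of neighbours in that order, 2 were separated by more than the SD of both groups. One of these 2 gaps, 0.92, lay between untreated PI416937 at 2 h and untreated PI416937 at 48 h, which is the gap between early and late groups.

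Between the genotypes without Al, AS2 in PI416937 minus Young was -1.42 ± 0.63 at 2 h, -0.28 ± 0.51 at 12 h, 0.54 ± 0.51 at 48 h and -1.17 ± 0.51 at 72 h. The arrays of the genotypes did not overlap at 2 and 72 h and overlapped at 12 and 48 h. The mean over the 4 times was -0.58 ± 0.27 and was not called.

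**Figure D1:**
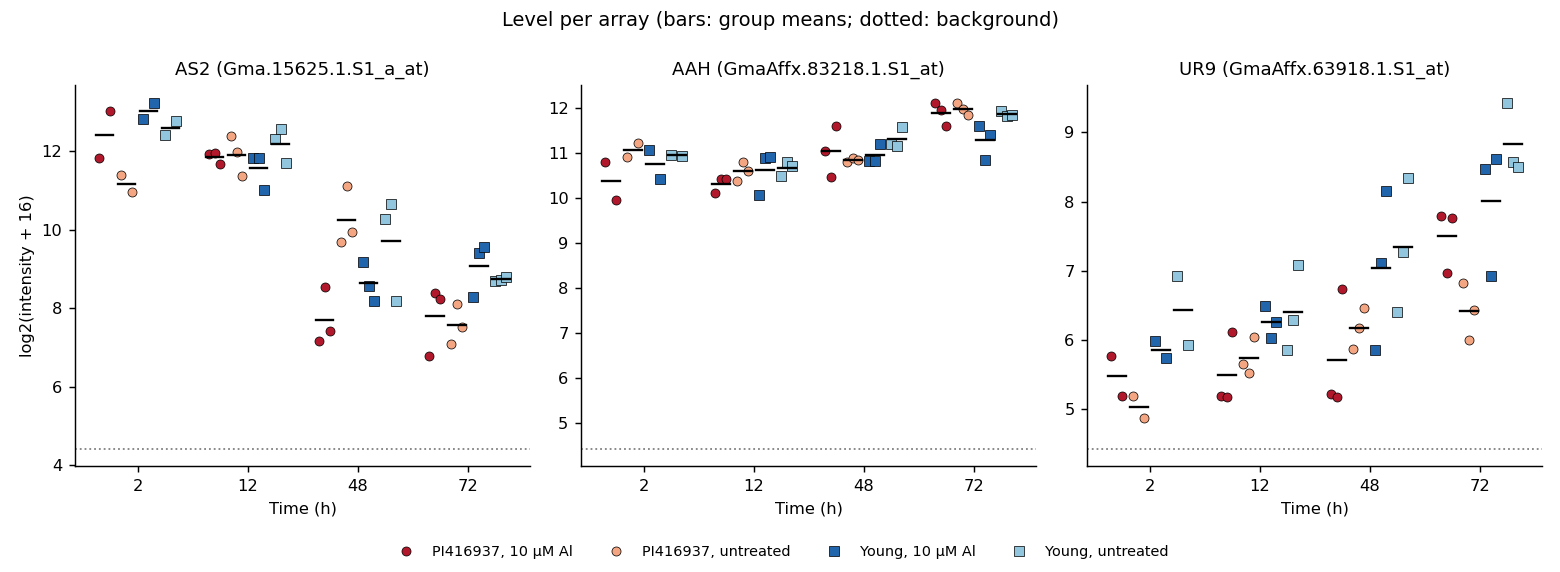
Level of AS2, AAH and UR9 on each of the 44 arrays, as log2(intensity + 16), against time in hours (categories, not to scale); points are arrays, black bars group means, and the dotted line the background of 4.41. AS2 (_a_at) falls after 12 h and is lowest at 48 h in PI416937 with Al and at 72 h in PI416937. AAH is highest at 72 h, and UR9 in untreated Young at 72 h lies between 8.50 and 9.43.

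UR9 lies on chromosome 10, from 30883499 to 30887970, and carries the synonym nodulin-35. It was lower in PI416937 than in Young without Al at every time. Its highest group mean in each genotype and treatment was that of 72 h, which in untreated PI416937 was only 0.25 above that of 48 h. Its single probe set ran from 4.87 to 9.43 over the 44 arrays with a median of 6.27, so the lowest arrays were close to background.

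In PI416937 with Al, UR9 read 5.76 and 5.19 at 2 h, 5.18, 5.17 and 6.10 at 12 h, 5.21, 5.17 and 6.74 at 48 h, and 7.79, 6.97 and 7.76 at 72 h. In untreated PI416937 it read 5.18 and 4.87 at 2 h, 5.65, 5.52 and 6.04 at 12 h, 5.87, 6.17 and 6.46 at 48 h, and 6.82, 6.0 and 6.43 at 72 h. At 72 h all 3 arrays with Al lay above all 3 without.

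In Young with Al, UR9 read 5.98 and 5.73 at 2 h, 6.48, 6.02 and 6.26 at 12 h, 5.85, 7.11 and 8.16 at 48 h, and 8.48, 6.92 and 8.61 at 72 h. In untreated Young it read 6.92 and 5.93 at 2 h, 5.85, 6.28 and 7.08 at 12 h, 6.40, 7.27 and 8.34 at 48 h, and 9.43, 8.57 and 8.50 at 72 h. The arrays of Young with Al and without Al overlapped at every time, and those at 48 h were widely spread in both treatments.

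Without Al, UR9 in PI416937 minus Young was -1.40 ± 0.63 at 2 h, -0.66 ± 0.52 at 12 h, -1.17 ± 0.52 at 48 h and -2.42 ± 0.52 at 72 h. The arrays of the genotypes did not overlap at 2 and 72 h. The mean over the 4 times was 5.84 in PI416937 and 7.25 in Young, a difference of -1.41 ± 0.27 that was called. It was -1.46 ± 0.28 without replicate 1 of untreated PI416937 at 72 h, an array far from its group.

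With Al, UR9 in PI416937 minus Young was -0.38 ± 0.63 at 2 h, -0.77 ± 0.52 at 12 h, -1.33 ± 0.52 at 48 h and -0.50 ± 0.52 at 72 h, and the arrays overlapped at each of these times. The difference with Al at 72 h was 1.09 ± 0.52 in PI416937 and -0.83 ± 0.52 in Young. PI416937 minus Young in that response was 1.92 ± 0.73 and was not called. With Al at 72 h the mean of UR9 was higher in PI416937 and lower in Young than without Al, and the gap between the genotypes was narrower.

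At the earlier times the difference of UR9 with Al was 0.45 ± 0.63 at 2 h, -0.26 ± 0.52 at 12 h and -0.46 ± 0.52 at 48 h in PI416937. In Young it was -0.57 ± 0.63 at 2 h, -0.15 ± 0.52 at 12 h and -0.30 ± 0.52 at 48 h. The fall at 48 h in PI416937 was lessened by replicate 3 with Al, which read 6.74, and the difference was -0.97 ± 0.54 without that array.

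For UR9, 13 of the 15 neighbour pairs in the order of group means were separated by no more than the SD of one of their groups. Untreated Young at 72 h was highest, at 8.84 ± 0.52 (SD, n = 3), and untreated PI416937 at 2 h lowest, at 5.02 ± 0.22 (SD, n = 2). Averaged over genotypes without Al, UR9 was 5.72 at 2 h, 6.07 at 12 h, 6.75 at 48 h and 7.63 at 72 h. None of the 3 steps was called: 48 h minus 2 h was 1.03 ± 0.41, 48 h minus 12 h was 0.68 ± 0.36 and 72 h minus 48 h was 0.88 ± 0.36. From 48 to 72 h untreated PI416937 went from 6.16 ± 0.30 to 6.42 ± 0.41 and untreated Young from 7.34 ± 0.97 to 8.84 ± 0.52 (SD, n = 3 each). The late step in PI416937 was 0.25, and 0.05 ± 0.58 (SE) without replicate 1 at 72 h. Whether the late step differed between the genotypes was not tested.

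**Figure D2:**
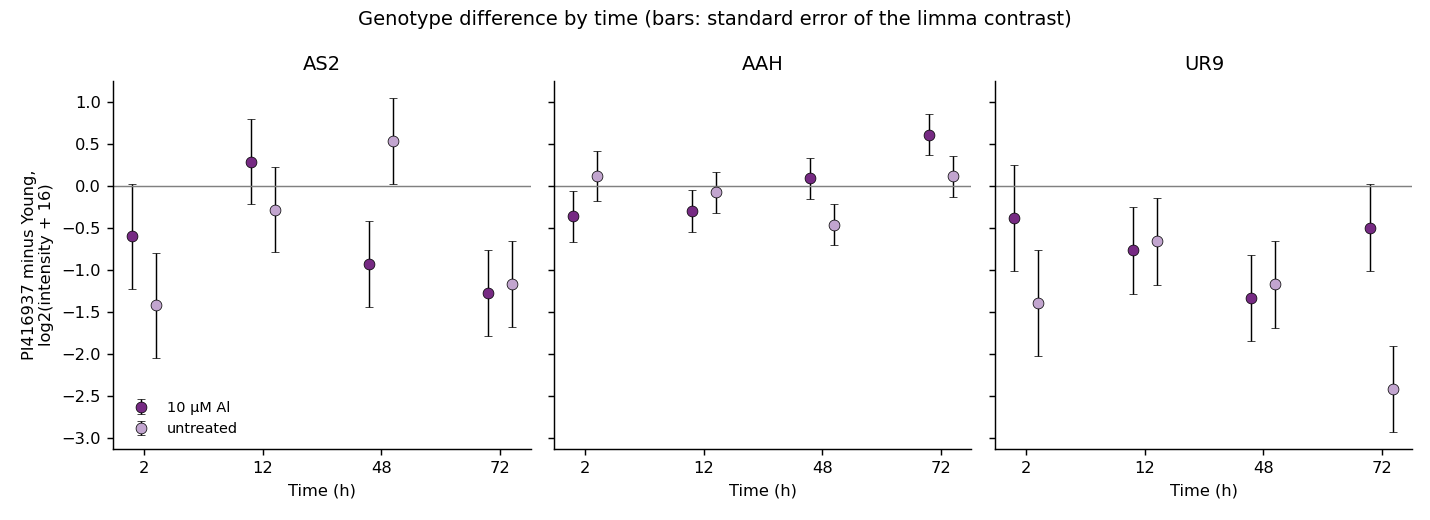
PI416937 minus Young for AS2, AAH and UR9 at each time, in roots with 10 µM Al (dark) and untreated roots (light), as differences of log2(intensity + 16); bars are the SE of the limma contrast. UR9 is below 0 at all 4 times in both treatments, from -2.42 in untreated roots to -0.38 with Al, and AAH stays between -0.46 and 0.61.

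AAH lies on chromosome 15, from 13139480 to 13145194. It was highest at 72 h, and among the 4 groups of that time it was lowest in Young with Al on all 4 probe sets. The probe set with the highest mean of the 4 represents it, and ran from 9.95 to 12.12 over the 44 arrays with a median of 10.90.

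In PI416937 with Al, AAH read 10.81 and 9.95 at 2 h, 10.11, 10.43 and 10.43 at 12 h, 11.06, 10.47 and 11.59 at 48 h, and 12.11, 11.96 and 11.61 at 72 h. In untreated PI416937 it read 10.90 and 11.23 at 2 h, 10.37, 10.81 and 10.60 at 12 h, 10.81, 10.88 and 10.84 at 48 h, and 12.12, 11.98 and 11.85 at 72 h. The untreated arrays at 48 h were tightly grouped, while those with Al were spread on both sides of them.

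In Young with Al, AAH read 11.06 and 10.43 at 2 h, 10.06, 10.89 and 10.91 at 12 h, 10.81, 10.83 and 11.19 at 48 h, and 11.61, 10.84 and 11.40 at 72 h. In untreated Young it read 10.96 and 10.93 at 2 h, 10.49, 10.80 and 10.71 at 12 h, 11.20, 11.15 and 11.58 at 48 h, and 11.95, 11.83 and 11.84 at 72 h. At 72 h all 3 arrays of Young with Al lay below all 3 untreated arrays.

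The difference of AAH with Al in PI416937 was -0.68 ± 0.30 at 2 h, -0.27 ± 0.25 at 12 h, 0.20 ± 0.25 at 48 h and -0.09 ± 0.25 at 72 h. In Young it was -0.20 ± 0.30 at 2 h, -0.05 ± 0.25 at 12 h, -0.36 ± 0.25 at 48 h and -0.59 ± 0.25 at 72 h. The pairs of Young at 48 h differed by -0.38, -0.31 and -0.38, all in 1 direction, and those at 12 h by -0.43, 0.09 and 0.19. With the pairs as a block the SE at both times was 0.22, and neither difference was called. The other 3 probe sets gave -0.68, -0.81 and -0.97 for Young at 72 h, and none of the 4 was called there. Without replicate 3 of PI416937 with Al at 48 h, which read 11.59, the difference in PI416937 at 48 h was -0.08 ± 0.25 in place of 0.20.

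Averaged over genotypes without Al, AAH was 11.01 at 2 h, 10.63 at 12 h, 11.08 at 48 h and 11.93 at 72 h. The step for 72 h minus 48 h was 0.85 ± 0.17, and it was 1.28 ± 0.24, 1.01 ± 0.26 and 0.94 ± 0.19 on the other 3 probe sets, with all 4 called. With Al the same step was 0.85 ± 0.25 in PI416937 and 0.33 ± 0.25 in Young. It was 1.14 ± 0.25 in untreated PI416937 and 0.56 ± 0.25 in untreated Young.

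Before 48 h the steps of AAH were small: 48 h minus 2 h was 0.07 ± 0.19 and 48 h minus 12 h was 0.44 ± 0.17, neither called. In the order of group means, the first 3 places were held at 72 h by PI416937 with Al, at 11.89 ± 0.26, untreated PI416937, at 11.98 ± 0.13, and untreated Young, at 11.87 ± 0.07 (SD, n = 3 each). They differed from one another by less than the SD of one of the groups. The next group, untreated Young at 48 h, lay 0.56 lower, more than the SD of either neighbour.

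The 4 AAH probe sets ran closely together, with Pearson r from 0.953 to 0.995 over the 16 group means. Their group means spanned 1.66 to 2.03, and the size of single differences varied more, as the values above for 72 h show. Without Al, PI416937 minus Young for AAH averaged -0.08 ± 0.13 over the 4 times and was not called. At 48 h it was -0.46 ± 0.25, with all 3 arrays of PI416937 below all 3 of Young, and the same was seen on 2 of the other 3 probe sets (-0.54 and -0.48). At the other 3 times the arrays of the genotypes overlapped on all 4 probe sets.

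The 2 probe sets shared by AAH and AAH2 gave a mixed picture for 72 h minus 48 h without Al. The one with the suffix _at differed by 0.78 ± 0.18 and was called, and the one with the suffix _s_at differed by 0.22 ± 0.18 and was not. Which of the genes each of these detects was not tested.

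**Figure D3:**
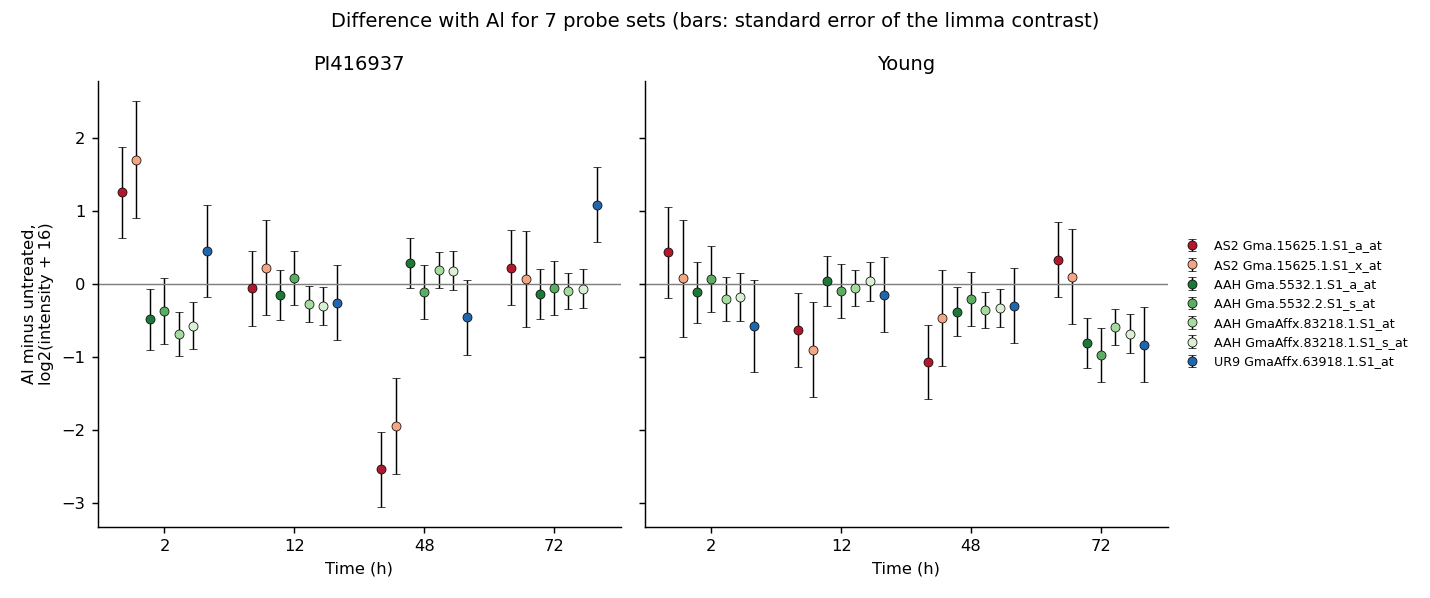
Al minus untreated at each time in PI416937 (left) and Young (right) for the 7 probe sets, as differences of log2(intensity + 16) with the SE of the limma contrast. Both AS2 probe sets are lowest at 48 h in PI416937 (-2.54 and -1.94), UR9 is at 1.09 in PI416937 at 72 h, and the 4 AAH probe sets lie between -0.97 and -0.59 in Young at 72 h.

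The counts of called probe sets among the 7 stand beside the share of all tested probe sets called in the same comparison, and nothing is read from them because the genes were chosen on these contrasts. For Al minus untreated in PI416937, 0 of 7 were called at 2 h (1.01% of all tested), 0 at 12 h (0.00283%), 1 at 48 h (4.04%) and 0 at 72 h (0.0397%). For Young, 0 of 7 were called at 2 h (0.105%), 12 h (0.0822%), 48 h (2.77%) and 72 h (3.7%). For PI416937 minus Young in the response to Al, 0 of 7 were called at 2 h (0.357%), 12 h (0%), 48 h (0.0113%) and 72 h (1.71%). At 12 h limma called 0 of 35289 probe sets in that comparison, and 1228 had an unadjusted p under 0.05.

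For PI416937 minus Young without Al, 1 of 7 was called (4.84%), and it was UR9. Over time without Al, both AS2 probe sets were called lower in 48 h minus 2 h (20.6% of all tested called) and in 48 h minus 12 h (4.1%). In 72 h minus 48 h, 6 of 7 were called (21.5%), the 4 of AAH higher and the 2 of AS2 lower.

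Over the 16 group means, AS2 and AAH ran opposite to each other (Pearson r = -0.78), AS2 and UR9 less closely so (r = -0.53), and UR9 and AAH ran together (r = 0.67). The group means share their arrays and their times of harvest, so these are descriptions without a test. Among 5886 genes searched, the 5 whose group means correlated most with AS2 were GSTU17, a tau-class glutathione transferase by its symbol (r = 0.958), LOC100137078 (0.956), LOC100790001 (0.955), LOC100306243 (0.954) and PIP2-10, an aquaporin of the plasma membrane (0.951). For AAH they were LOC100798611, LOC100306106, LOC100784150, LOC732580 and LOC100819511, with r from 0.976 to 0.958. For UR9 they were LOC100794091, LOC100803880, LOC100775672, LOC100526859 and LOC100814950, with r from 0.956 to 0.906.

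The neighbouring steps of the pathway were read from 5 lists with 50 probe sets of 27 genes, all of which passed the filter. The lists were purine and ureide synthesis (9 probe sets of 6 genes), ureide transport and breakdown (2 of 2), asparagine and aspartate (9 of 3), glutamine and glutamate (21 of 10), and nitrate and ammonium (9 of 6). Of the 50, 3 values were called among the 8 differences with Al: PUR1 in PI416937 at 48 h, PUR1 in Young at 72 h, and LOC547953 in PI416937 at 2 h. Each is 1 of 50, where 4.04%, 3.7% and 1.01% of all tested probe sets were called, and nothing particular to the lists is read from these counts. The median difference of the purine and ureide synthesis list was -0.27 in PI416937 at 48 h, against -0.02 over all tested probe sets. In Young at 72 h it was -0.10, against -0.02, so PUR1 differed in the opposite direction to the median of its list.

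PUR1 (synonym GmPRAT3) encodes the amidotransferase of the first committed step of purine synthesis, upstream of urate. In PI416937 at 48 h it read 8.96, 8.48 and 7.94 with Al, against 7.02, 5.47 and 5.37 without, and rose by 2.51 ± 0.66 (limma adjusted p = 0.0248). In Young at 72 h it read 7.31, 8.07 and 8.27 with Al, against 5.87, 4.80 and 5.06 without, and rose by 2.64 ± 0.66 (limma adjusted p = 0.0196). The arrays did not overlap in either comparison.

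For PUR1 in PI416937 at 72 h the arrays read 5.86, 5.44 and 6.14 with Al and 8.37, 6.88 and 5.74 without. That difference was -1.19 ± 0.66 and was not called, and PI416937 minus Young in the response at 72 h was -3.83 ± 0.93 (limma adjusted p = 0.0264). It was -3.14 with an adjusted p of 0.162 without replicate 1 of untreated PI416937 at 72 h, which read 8.37 and is an array far from its group. The call at 48 h in PI416937 was lost without replicate 1 or 2 with Al (limma adjusted p = 0.0993 and 0.0947) and without untreated replicate 2 or 3 (0.0926 and 0.141). The call at 72 h in Young was lost without replicate 2 or 3 with Al (limma adjusted p = 0.112 and 0.0991) and without untreated replicate 2 or 3 (0.0988 and 0.0816). When only the 2 groups compared were fitted, the call at 48 h in PI416937 was lost (limma adjusted p = 0.133).

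LOC547953, a cytosolic glutamine synthetase by its synonym GS1beta2, averaged 4.37 with Al and 4.56 without in PI416937 at 2 h. That fall by 0.20 (SE 0.05, limma adjusted p = 0.0244) lay at the background of 4.41. It was -0.10 with an adjusted p of 0.599 without untreated replicate 2, and the call was also lost without replicate 1 or 2 with Al (limma adjusted p = 0.0605 and 0.219), without a variance trend (0.0916) and when only the 2 groups compared were fitted (0.878).

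**Figure D4:**
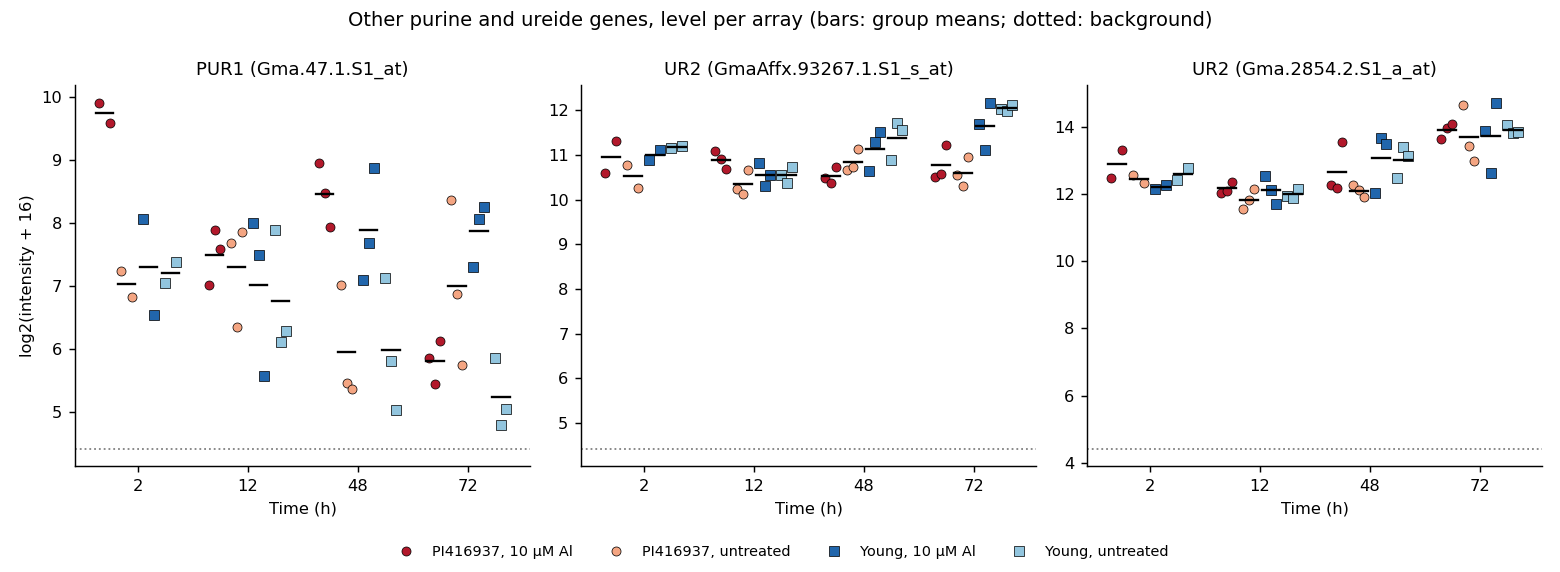
Level of PUR1 and of 2 probe sets of UR2 on each array, as log2(intensity + 16), against time in hours (categories, not to scale), with group means as bars and the background of 4.41 dotted. PUR1 with Al lies above the untreated arrays in PI416937 at 48 h and in Young at 72 h, and the _s_at probe set of UR2 (middle) in untreated roots at 72 h lies lower in PI416937 than in Young.

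Between the genotypes without Al, 3 of the 50 probe sets were called (4.84% of all tested probe sets were). UR2, a second uricase gene that shares the N-35 synonym of nodulin-35, was lower in PI416937 on its _s_at probe set, by -0.72 ± 0.14 (limma adjusted p = 0.000868). At 72 h that UR2 probe set read 10.56, 10.31 and 10.94 in untreated PI416937 and 12.04, 11.98 and 12.12 in untreated Young. Its other probe set, with the suffix _a_at, differed by -0.36 ± 0.23 and was not called. UR9 and UR2 thus both had a probe set called lower in PI416937, and how far the probes of one detect the other was not tested.

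The other 2 calls between genotypes were the nitrate transporter NRT1-3 and IMPDH1, an inosine monophosphate dehydrogenase. NRT1-3 was called on 1 of its 2 probe sets, and the other was not called. The called NRT1-3 probe set averaged 7.73 in PI416937 and 9.04 in Young, a difference of -1.31 ± 0.37 (limma adjusted p = 0.0328). That difference was -1.03 with an adjusted p of 0.129 without replicate 1 of untreated PI416937 at 2 h. That call was also lost without replicate 3 at 12 h, replicate 3 at 48 h, or replicate 2 or 3 at 72 h of untreated PI416937, and without replicate 1 or 2 at 2, 12 or 48 h, or replicate 2 or 3 at 72 h, of untreated Young (limma adjusted p from 0.0506 to 0.0754). IMPDH1 averaged 10.18 in PI416937 and 9.84 in Young, a difference of 0.34 ± 0.09 (limma adjusted p = 0.0203). Without replicate 1 of untreated Young at 2 h its adjusted p was 0.0606.

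Over time without Al, 19 of the 50 probe sets were called in 48 h minus 2 h (9 higher, 10 lower), where 20.6% of all tested probe sets were. In 48 h minus 12 h 7 of the 50 were called (all higher, 4.1% of all tested), and in 72 h minus 48 h 11 of the 50 (6 higher, 5 lower, 21.5% of all tested), the last a share near that of all probe sets. Urease LOC547672 (synonym URE) and EU3, a urease accessory protein, rose by 1.13 ± 0.13 and 0.86 ± 0.16 in 48 h minus 2 h (limma adjusted p = 6.34e-07 and 0.000305). LOC547672 then fell by 0.46 in 72 h minus 48 h (SE 0.11, limma adjusted p = 0.00511), a step in which AAH was higher. In the same late step UR2 rose by 1.25 ± 0.30 on its _a_at probe set (limma adjusted p = 0.00487). Its _s_at probe set was not called in that step and was called higher in 48 h minus 12 h.

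On the asparagine side, ASP1, an asparaginase by its synonym GM-ASNASE1, fell by 0.78 in 72 h minus 48 h (SE 0.27, limma adjusted p = 0.0359), the step in which AS2 was also lower. LOC732660 was listed as an asparagine synthetase by its synonym SAS3. All 4 of its probe sets rose in that step, by 0.68 to 0.92 (limma adjusted p from 0.00504 to 0.0194), opposite to AS2. In 48 h minus 2 h its _at probe set fell by 0.83 (SE 0.26, limma adjusted p = 0.0208), in the direction of AS2, and its others were not called. In 72 h minus 48 h both GDH2 probe sets, for a glutamate dehydrogenase, fell, by 1.34 and 1.35 (limma adjusted p = 0.00231 and 0.00247). In that late step 1 of the 4 probe sets of GDH1 rose, by 1.22 ± 0.41 (limma adjusted p = 0.0339). The GDH1 call was lost without replicate 2 or 3 at 48 h or replicate 1 or 2 at 72 h of untreated PI416937, and without replicate 1 at 48 h or any replicate at 72 h of untreated Young (limma adjusted p from 0.0552 to 0.114). Of the LOC732660 probe sets, the one with the suffix _x_at lost its call without replicate 1 of untreated PI416937 at 48 h or 72 h or replicate 1 of untreated Young at 72 h (limma adjusted p = 0.0503, 0.0721 and 0.0701).

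The early step was lower for nitrate transport: 48 h minus 2 h was -2.56 ± 0.55 for NRT1-3 and -2.51 ± 0.74 for NRT2, a high-affinity nitrate transporter (limma adjusted p = 0.00153 and 0.015). The NRT2 call was lost without replicate 1 of untreated PI416937 or replicate 2 of untreated Young at 2 h (limma adjusted p = 0.115 and 0.118). AS2 was lower over the same interval. Plastid glutamine synthetase GS-2 rose by 2.12 ± 0.38 in 48 h minus 12 h (limma adjusted p = 0.0018).

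Since uricase and ureide genes are known from nodules, nodule markers were set beside UR9. The list held 21 probe sets of 17 genes, of which 6 did not pass the filter, among them those of N-22, N-23, N-26B and N-44, and N-21, N-56 and N-70 stayed at or near background in all 16 groups. ENOD40B, ENOD55-2 and N-36A were above background in all 16 groups, with group means of 5.13 to 7.30, 5.03 to 6.59 and 5.30 to 6.39, and ENOD93 was above it in 14 groups, with means of up to 8.52. Its summed intensity, carried mostly by sucrose synthase SS, NOD33 and UR2, spanned 35624 to 92040 (median 58300) in untreated PI416937 and 35580 to 75663 (median 60423) in untreated Young. It spanned 54799 to 72102 in untreated roots at 48 h and 73463 to 92040 at 72 h, when UR9 and AAH were highest. UR2, itself a uricase, is part of that sum. Its _a_at probe set averaged 12.55 at 48 h and 13.79 at 72 h in untreated roots. Of the 15 tested probe sets, 4 were called higher in 48 h minus 2 h (20.6% of all tested called) and 5 higher in 48 h minus 12 h (4.1%). In both of these steps they included the 3 probe sets of the single gene SS and that of ENOD55-2. The _s_at probe set of UR2 was added in 48 h minus 12 h. In 72 h minus 48 h, 2 were called higher and 1 lower (21.5%). The last 3 were ENOD93, higher by 3.15 ± 0.50 (limma adjusted p = 0.000252), the _a_at probe set of UR2, and ENOD55-2, which fell by 1.19 (SE 0.21, limma adjusted p = 0.000551). The part of these levels in the UR9 and AAH results was not tested.

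Green tissue markers CAB3 and PSAD (10 probe sets) summed to 10848 to 17444 in PI416937 with Al at 48 h and 14175 to 17173 in untreated PI416937 at 48 h, the comparison in which AS2 differed. That sum was carried mostly by 1 PSAD probe set, with group means of 12.93 to 13.67. The group means of the others reached at most 10.22. ENOD55-2 was the 1 nodule probe set of 15 called with Al at 48 h in PI416937 (4.04% of all tested called) and in Young (2.77%). It fell there by 1.10 in PI416937 (SE 0.30, limma adjusted p = 0.0327) and by 1.14 in Young (SE 0.30, limma adjusted p = 0.0332). The value for Young is from the fit without the pairs as a block. In PI416937 at 48 h the root tip markers summed to 54145 to 60876 with Al and 49156 to 58534 without. Their part in the AS2 difference was not tested.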

How the data were processed

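Root tip RNA was labelled as biotin cRNA and hybridised to 1-colour Affymetrix arrays, per the labels' protocols. The deposited table holds the authors' intensity per probe set and array on a linear scale; its summarisation and normalisation steps are not given in the sources used here. The median intensity of an array lay between 6.56 and 7.52. Gene names came from the platform annotation, updated to Glycine_max_v4.0: 8677 soybean probe sets had 1 gene, 370 several and 28546 none.

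Values were taken as log2 of the deposited intensity plus 16. A soybean probe set was tested if any group mean exceeded the background (35289 did). limma 3.58.1 in R 4.3.3 fitted 16 group means over 44 arrays, with contrasts and eBayes with a trend (28 residual degrees of freedom), and p was adjusted per comparison (Benjamini-Hochberg). The script was tested on simulated data. Since no label names separate cultures, p reflects only how far these samples spread, which may be technical.

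The 3 genes, the gene lists and the tests were chosen with earlier results of these data known. All 7 probe sets are named; of each list, up to 4 called probe sets per comparison with the smallest p were eligible, and further values of PUR1 and UR2, and those of ASP1, LOC547724 and the nodule markers, were added after they were seen. Genes most like a member were the 5 with the highest Pearson r over group means.

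Replicate numbers are shared by arrays with Al and without Al. Deviations from group means correlated above 0.1 in every pair of Young at 12 h (0.24 to 0.29) and 48 h (0.38 to 0.48), where the numbers were taken to pair the samples. They did not do so in the other groups of 3 pairs (for example -0.27 to 0.39 in PI416937 at 72 h), and the 2 pairs at 2 h (0.35 in Young, -0.18 in PI416937) are too few to decide. Alternatives were pseudocounts of 1 and 64, quantile normalisation, median centring, no filter, no variance trend, the replicate block, a fit of only the groups compared, other probe sets, and leaving out each array.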

Additional observations from a re-analysis of the deposited data

Results flagged for a closer look

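PUR1, the amidotransferase gene of purine synthesis, differed between genotypes in its response to Al at 72 h by limma's interaction contrast. PI416937 minus Young in that response was -3.83 ± 0.93 (SE, adjusted p = 0.0264). The difference with Al was -1.19 ± 0.66 in PI416937, where the 3 arrays with Al lay within or just below the range of the 3 untreated arrays, and 2.64 ± 0.66 in Young, where all 3 arrays with Al lay above all 3 untreated arrays. When 1 array was left out, the call was lost in 7 cases, with an adjusted p from 0.0523 to 0.162: without replicate 1 or 2 of PI416937 with Al, replicate 1 of untreated PI416937, or replicate 2 or 3 of Young with Al or of untreated Young. The adjusted p was 0.0904 when only these 4 groups were fitted.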

How the results depend on the processing

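AS2 with Al in PI416937 at 48 h ranged from -2.96 to -2.10 when single arrays were left out, and UR9 in PI416937 minus Young from -1.54 to -1.29. The AAH step of 72 h minus 48 h ranged from 0.81 to 0.92, and was 1.28 and 1.01 on 2 of its other probe sets. The AS2 steps without Al ranged from -2.14 to -1.53 (48 h minus 2 h), -2.31 to -1.70 (48 h minus 12 h) and -2.20 to -1.58 (72 h minus 48 h), and the first was -4.18 on the x probe set. UR9 is dim, and its genotype difference was -1.71 with a pseudocount of 1 and -0.98 with 64. No called value changed sign. Of the 78 differences of AS2, UR9 and AAH, 18 changed sign under some alternative, none of them called and none over 0.54 in size, such as AS2 in untreated PI416937 minus Young at 48 h (0.54, and -0.21 without replicate 3 of Young). Why the values moved was not tested.

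Of the 50 other probe sets, 3 values were called with Al, 2 to 6 when single arrays were left out: 5 without replicate 1 of untreated PI416937 at 2 h, 5 without replicate 2 of PI416937 with Al at 72 h, and 6 without replicate 3 of Young with Al at 12 h. Between genotypes 3 were called, 2 to 5 when single arrays were left out, with 5 without replicate 1 of untreated PI416937 at 72 h. Over the 3 time steps 37 values were called, 26 to 39 when single arrays were left out, and 21 when only the compared groups, hence fewer samples, were fitted. With Al, that fit called 3 values, PUR1, GDH1 and GS-2 in Young at 72 h (adjusted p = 0.0247, 0.0323 and 0.0146), and lost PUR1 in PI416937 at 48 h and LOC547953. With the replicate number as a block, 4 values were called with Al in place of 3, the added one LOC547724 in PI416937 at 48 h (-0.46, adjusted p = 0.0494). Among the members the block added calls for 2 AAH probe sets in Young at 72 h (-0.81 and -0.97) and for UR9 in the response at 72 h (1.92), where the numbers were not taken to pair the samples. AS2 in PI416937 at 48 h stayed at -2.54, since the block leaves the difference of complete pairs as it is. Signal over background limits UR9 and LOC547953.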
